A study of Homo sapiens with 9 samples.

Results

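This report covers the comparison of TR11B_KO with NC: 3 libraries of cells given a Lenti-CRISPR-V2 plasmid directed at TR11B against 3 libraries of cells given the same plasmid without an insert. They are 6 of the series' 9 libraries, and were chosen by their sample titles and treatment labels. The other 3 libraries, OGT_KO, had received a plasmid directed at OGT. All cells carry the label A549, a human lung adenocarcinoma line, and were cultured in DMEM supplemented with fetal bovine serum and antibiotics. TR11B was taken to be TNFRSF11B, since TR11B is the UniProt entry name of that gene's protein. The labels give NC the genotype WT although its cells had also received a plasmid. The guide sequence, and whether the knockout cells were a clone or a pool, are not given in the sources used here, so effects of the guide, of a clone and of the loss of TNFRSF11B cannot be told apart. Replicates are biological according to the titles, although nothing ties them to separate cultures. A p-value here therefore reflects only how far these samples scatter, and that scatter may be technical. The question the design addresses is how removal of TR11B changes the transcriptome of these cells.

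Osteoprotegerin, the product of TNFRSF11B, is a soluble member of the tumour necrosis factor receptor superfamily. In bone it captures RANKL (TNFSF11) before RANKL can reach its receptor RANK (TNFRSF11A) on osteoclast precursors, and so restrains bone resorption. It also binds the death ligand TRAIL (TNFSF10), whose signalling receptors are TNFRSF10A and TNFRSF10B and whose decoys are TNFRSF10C and TNFRSF10D. Receptors of this family signal to NF-kB, in the alternative branch through the kinase NIK (MAP3K14), which is held at a low level by TRAF3 and the ubiquitin ligases BIRC2 and BIRC3.

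Total counts ranged from 38721903 to 42245970 in NC and from 39556504 to 41920820 in TR11B_KO. TR11B_KO replicate 2 stood apart: 14128 genes were detected in it and 14581 to 14779 in the other 5 libraries, its TMM scaling factor was 0.816 against 0.992 to 1.06, and its rank correlation with the other TR11B_KO libraries across genes was 0.958 and 0.97, where replicates 1 and 3 reached 0.983 and the NC pairs 0.987 to 0.991. Counts of calls are therefore given with and without it. The cell label was checked against genes chosen after the values were seen. A549 is known for a homozygous loss of CDKN2A and for a KEAP1 mutation with very high aldo-keto reductase and aldehyde dehydrogenase levels. CDKN2A had 5523, 5189 and 4173 counts in NC and 9775, 4366 and 9151 counts in TR11B_KO, whereas AKR1B10, AKR1C1, AKR1C2, AKR1C3, ALDH1A1, ALDH3A1 and GPX2 together had 28 of 244912737 counts. CDH1, the epithelial cadherin, had 0 counts in all 6 libraries, and the simple keratin KRT8 had 7986 to 11625 CPM (counts per 1e+06 counts of the scaled total). Of the other simple epithelial markers, KRT19 was at 0.045 to 0.465 CPM and EPCAM had 0 to 2 counts. The list of these markers summed to 13000 to 20800 CPM. The values of CDKN2A and of the reductase, dehydrogenase and GPX2 genes above go against the label A549 in both groups alike. The cells are therefore called here by their group names. Not all lung or aldo-keto reductase genes were low. The aldo-keto reductase AKR1B1 was at 1164 to 1252 CPM in NC, the alveolar type 2 gene ABCA3 at 161 to 179 CPM in NC and 116 to 300 CPM in TR11B_KO, and the alveolar type 1 list, mainly CAV1, at 32.9 to 64.7 CPM. Of the markers of other cell types, the club cell gene SCGB1A1 and the fibroblast genes COL3A1, LUM and PDGFRB were at 0 in all 6 libraries, and summed levels were 2.75 to 6.22 CPM for immune genes, 0 to 0.464 CPM for endothelial genes and 0.338 to 0.834 CPM for fibroblast genes.

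TNFRSF11B itself (chromosome 8, 118923557 to 118951885, GRCh38.p14) was barely expressed even in NC, so the knockout could be checked only on a few reads. Its counts were 13, 15 and 3 in NC replicates 1, 2 and 3, and 3, 1 and 0 in those of TR11B_KO. NC replicate 3 and TR11B_KO replicate 1 had the same count, so the groups met at their edges. Summed over libraries, 31 counts in NC stood against 4 in TR11B_KO, a depth-scaled ratio of 0.143 (exact 95% Poisson interval 0.0366 to 0.403, counting error only). The exact two-sided permutation test over the 6 samples gave p = 0.1, the smallest that 3 against 3 allows. Without TR11B_KO replicate 1 the ratio was 0.0571, and without TR11B_KO replicate 3 it was 0.219. Mean levels were 0.236 CPM in NC and 0.0331 CPM in TR11B_KO, too low for the gene to enter the fit across genes. An edit that leaves the transcript in place would not show in these counts.

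TR11B_KO differed from NC in a broad set of genes, with as many rising as falling. In TR11B_KO the lymphotoxin gene LTB, the p53 target PHLDA3 and the insulin-like growth factor binding proteins IGFBP4 and IGFBP6 rose, while the NF-kB-inducing kinase MAP3K14, complement C3, transglutaminase TGM2 and the platelet-derived growth factor chain PDGFB fell. Among longer lists, falls outnumbered rises in mitosis and in mesenchymal and TGF-beta genes, and rises outnumbered falls in ribosomal protein and respiratory chain genes. With the offset for gene length described below, however, only 5 of 72 respiratory chain genes rose and 4 fell. With that offset and without TR11B_KO replicate 2, 24 rose and 9 fell. Of 12055 genes tested with edgeR's quasi-likelihood test, 2251 passed a Benjamini-Hochberg adjusted p of 0.05 (18.7%), 1130 higher (9.37%) and 1121 lower (9.3%). Of these, 1486 changed at least 2-fold, 745 upwards and 741 downwards. The 3 libraries of a group all lay on the same side of the other group's in 5036 genes (41.8%). The median log2 fold change of all tested genes was -0.0115.

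The number of calls rested strongly on single libraries. Without TR11B_KO replicate 2, 3859 of 12343 tested genes passed (31.3%), 1979 higher (16%) and 1880 lower (15.2%), and 2213 of the 2251 calls recurred with the same sign. Leaving out TR11B_KO replicate 1 gave 3317 calls and leaving out TR11B_KO replicate 3 gave 1043. Leaving out an NC library lowered the count to 340 (replicate 1), 245 (replicate 2) or 953 (replicate 3). Counts of list members called with a library left out, given below, are to be read beside these totals. With an offset that removes each library's trend with gene length, 1650 genes passed (13.7%), 862 higher (7.15%) and 788 lower (6.54%), and 1376 of the 2251 calls recurred with the same sign. In all 3 of these fits, 1351 genes passed with the same sign (11.2%), 666 higher (5.52%) and 685 lower (5.68%). Because of this, the genes described first are the top 14 in each direction by log2 fold change among 1004 that passed all 3 fits, averaged 2 or more on the log2 CPM scale and did not overlap between groups. For these, the lack of overlap and the passing of the test are part of the choice. Of the 28, 26 passed in all 16 settings tried. With NC replicate 2 left out MORN2 had an adjusted p of 0.05 and MIPEP of 0.0611. MIPEP had 0.0615 with NC replicate 1 left out and 0.0515 with TR11B_KO replicate 3 left out.

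Among the rises, LTB was the largest. LTB (chromosome 6, 31580558 to 31582425) encodes lymphotoxin beta, the membrane-anchored subunit of the ligand of the lymphotoxin beta receptor. Its levels were 4.60, 5.36 and 4.42 CPM in NC and 51.8, 83.6 and 62.3 CPM in TR11B_KO. Every TR11B_KO library was thus far above every NC library, at a log2 fold change of 3.78 ± 0.26 (SE, adjusted p = 0.000202, edgeR). With the length offset the log2 fold change was 3.25, and without TR11B_KO replicate 2 it was 3.60. PHLDA3 (chromosome 1, 201464278 to 201469188), a pleckstrin homology domain protein that restrains AKT and is induced by p53, stood at 5.03, 4.89 and 5.57 CPM in NC and at 29.8, 62.0 and 36.4 CPM in TR11B_KO. Its rise of 3.05 ± 0.31 on the log2 scale (adjusted p = 0.000748) was highest in TR11B_KO replicate 2, and was 2.71 without that library.

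Binding proteins of the insulin-like growth factors were prominent at higher levels of expression. IGFBP4 (chromosome 17, 40443450 to 40457725), a secreted inhibitor of insulin-like growth factor action, was measured at 118, 106 and 112 CPM in NC and at 466, 612.5 and 541 CPM in TR11B_KO, a log2 fold change of 2.27 ± 0.20 (adjusted p = 0.000336). IGFBP6, which prefers insulin-like growth factor II, was at 21.5, 21.9 and 29.2 CPM in NC and at 74.4, 163 and 93.2 CPM in TR11B_KO (2.19 ± 0.30, adjusted p = 0.0028). The transcriptional co-regulator CITED4 was at 196, 185 and 219 CPM in NC and at 655, 1298 and 784 CPM in TR11B_KO (2.19 ± 0.27, adjusted p = 0.00199). None of these 3 genes overlapped between the groups, and for IGFBP6 and CITED4 the level in TR11B_KO replicate 2 was the highest of all. KRT16, a keratin of stressed epithelium, rose from 1.34 to 1.80 CPM across NC to 10.5 to 19.5 CPM in TR11B_KO (log2 fold change 3.15). The other leading rises had log2 fold changes from 2.19 to 3.2 and were the junctophilin JPH3, the Nogo receptor relative RTN4RL2, the kinase-like DIPK1B, the small GTPase RASD2, the phosphoinositide 3-kinase inhibitor PIK3IP1, the adaptor SHF, the receptor EPHA10 and MORN2.

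Of the falls, ANXA3 and DYSF left only a small remainder. ANXA3, a calcium-dependent phospholipid-binding annexin, had 8.52, 7.99 and 12.4 CPM in NC and 1.18, 0.403 and 0.196 CPM in TR11B_KO (log2 fold change -3.99 ± 0.52, adjusted p = 0.00219). DYSF, the membrane repair protein dysferlin, had 9.88, 9.48 and 8.82 CPM in NC and 0.478, 0.434 and 0.883 CPM in TR11B_KO (-3.96 ± 0.33, adjusted p = 0.000295). For both, the highest TR11B_KO library was far below the lowest NC library. TGM2 (chromosome 20, 38127385 to 38168475), a transglutaminase that crosslinks matrix proteins, fell from 1912, 1871 and 1751 CPM in NC to 235, 369 and 297 CPM in TR11B_KO. That fall was -2.62 ± 0.22 on the log2 scale (adjusted p = 0.000295), with TR11B_KO replicate 2 the least affected.

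MAP3K14 (chromosome 17, 45263119 to 45317020) was at 80.0, 80.4 and 75.5 CPM in NC and at 13.4, 14.8 and 14.8 CPM in TR11B_KO. The libraries of each group lay close together and the groups far apart, with a log2 fold change of -2.45 ± 0.20 (adjusted p = 0.000266) that was also -2.45 without TR11B_KO replicate 2 and -2.26 with the length offset. PDGFB, a ligand that recruits pericytes and fibroblasts, was at 61.3, 67.7 and 53.5 CPM in NC and at 9.77, 6.97 and 11.2 CPM in TR11B_KO (-2.71 ± 0.25, adjusted p = 0.000449). Complement C3, on which all complement pathways converge, was at 73.2, 74.1 and 56.3 CPM in NC and at 9.32, 12.4 and 11.3 CPM in TR11B_KO (-2.62 ± 0.23, adjusted p = 0.000336). Both genes kept a wide gap between the groups. NNMT, which methylates nicotinamide, fell by 2.30 on the log2 scale, from 69.4 to 80.7 CPM in NC to 13.3 to 17.8 CPM in TR11B_KO. The remaining leading falls ranged in log2 fold change from -2.94 to -2.30: the actin-associated AFAP1L2, the ADP-dependent glucokinase ADPGK, the adhesion molecule L1CAM, the proteoglycan VCAN, the mitochondrial peptidase MIPEP, the telomerase inhibitor PINX1 and the granule-priming factor UNC13D.

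**Figure D1:**
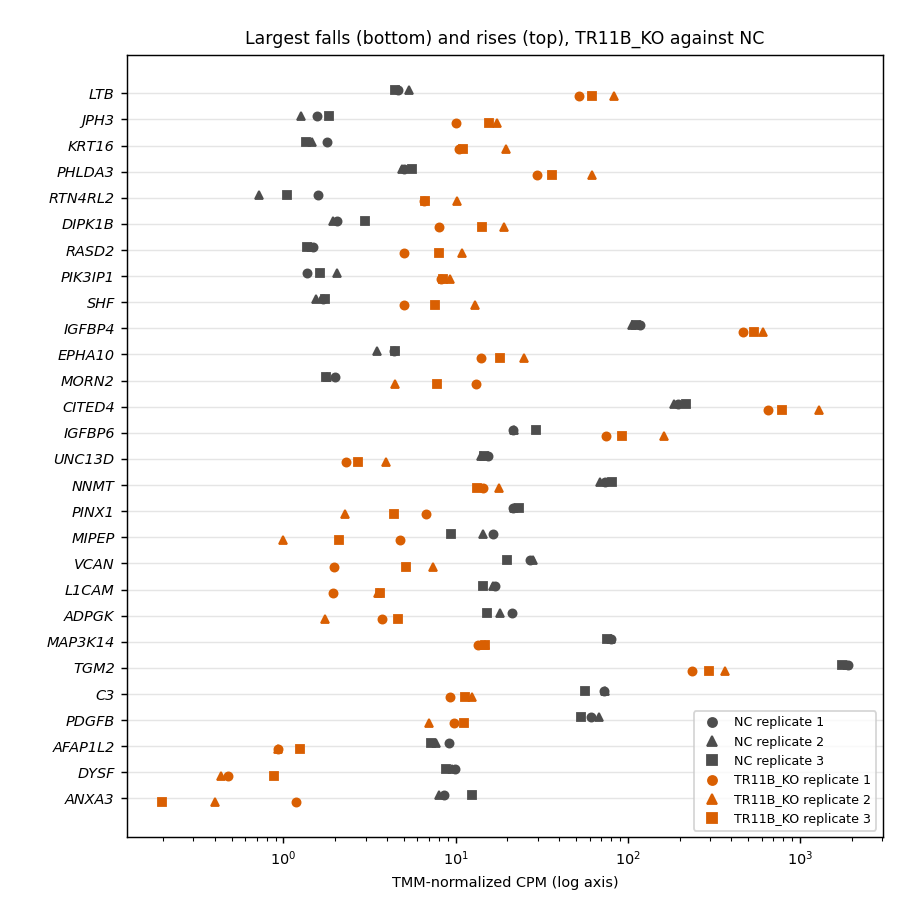
Level in each library of the 14 leading rises (top) and the 14 leading falls (bottom), as TMM-normalized CPM on a log axis, with a marker shape per replicate and a colour per group. For every gene shown the 3 TR11B_KO libraries lie on the same side of the 3 NC libraries, which the choice of genes required, and for LTB they lie at 51.8 to 83.6 CPM against 4.42 to 5.36 CPM.

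Of the receptors of osteoprotegerin's ligands, TNFRSF10B fell, and the others tested did not pass the test. Of 26 listed genes of this system, which include further death receptors and their adaptors, 19 could be tested, with a median log2 fold change of 0.211. Of these 2 rose (10.5%) and 2 fell (10.5%), against 9.37% and 9.3% of all tested genes. The list thus held calls at about the share of all genes. TNFSF11 was not analysed here. TRAIL (TNFSF10) had 1 count in NC replicate 1 and 0 in the other 5 libraries, and the decoy TNFRSF10C had 0 in all 6. RANK (TNFRSF11A) had a log2 fold change of 0.21 ± 0.66 (adjusted p = 0.841), the death receptor TNFRSF10A of 0.45 (adjusted p = 0.177) and the decoy TNFRSF10D of 0.42 (adjusted p = 0.266). Without TR11B_KO replicate 2 the value of TNFRSF10A was 0.53 (adjusted p = 0.0498).

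The TRAIL receptor TNFRSF10B was at 56.1, 56.0 and 49.3 CPM in NC and at 34.2, 21.3 and 34.0 CPM in TR11B_KO. It fell by 0.85 on the log2 scale (SE 0.23, adjusted p = 0.0295), with no overlap between groups. With the length offset the adjusted p was 0.0555, and the gene was not called without NC replicate 1 (0.156), NC replicate 2 (0.154), NC replicate 3 (0.078) or TR11B_KO replicate 3 (0.0666). FADD, the adaptor that joins death receptors to caspases, rose by 0.77 (adjusted p = 0.017), and was likewise lost with the length offset (0.085) and without NC replicate 1 (0.0887), NC replicate 2 (0.0944), NC replicate 3 (0.0801) or TR11B_KO replicate 3 (0.07). With any of those same 4 libraries left out, edgeR called 0 members of this list in either direction, and 4 to 6 of its members had an unadjusted p under 0.05. DESeq2 on all 6 libraries called 2 higher and 2 lower, and edgeR called 4 higher and 3 lower without TR11B_KO replicate 2. EdgeR with the length offset called 0 in either direction, with 1 higher and 3 lower at an unadjusted p under 0.05.

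Among components of the NF-kB pathway, ligands and receptors were among the rises and the kinase of the alternative branch among the falls. Of 30 listed genes 28 were tested, with a median log2 fold change of 0.0123. Of these 5 rose (17.9%) and 3 fell (10.7%), against 9.37% and 9.3% of all tested genes. The risers were the ligands LTB and TNF, which are neighbours on chromosome 6, the receptors CD40 and TNFRSF12A (the TWEAK receptor), and the ubiquitin ligase BIRC2. BIRC2 was at 3.11 to 3.25 CPM in NC and at 6.45 to 7.31 CPM in TR11B_KO (log2 fold change 1.12, adjusted p = 0.0111). The kinase MAP3K14, the adaptor TRAF3 and the NF-kB restraining factor TNIP1 fell. TRAF3 was at 19.8, 20.7 and 18.4 CPM in NC and at 13, 5.30 and 9.55 CPM in TR11B_KO (-1.08 ± 0.31, adjusted p = 0.0359). TNIP1 was at 546 to 560 CPM in NC and at 285 to 409 CPM in TR11B_KO (-0.74, adjusted p = 0.0297). TNF and CD40 were named after their values were seen.

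Only LTB and MAP3K14 of these were among the genes that held in every setting. With NC replicate 1 or NC replicate 2 left out, 1 member rose and 1 fell, and with NC replicate 3 or TR11B_KO replicate 3 left out, 2 rose and 1 fell. The numbers were 8 and 5 without TR11B_KO replicate 1, 6 and 5 without TR11B_KO replicate 2, and 2 and 2 with the length offset. BIRC2 was lost without NC replicate 1 (adjusted p = 0.0782) or NC replicate 2 (0.0824). TNFRSF12A had a log2 fold change of 0.81 (adjusted p = 0.0431) on all 6 libraries, 0.31 with the length offset (0.43) and -0.00152 with the offset and without TR11B_KO replicate 2 (0.996). It was also lost without NC replicate 1 (0.152), NC replicate 2 (0.157), NC replicate 3 (0.0922) or TR11B_KO replicate 3 (0.0741). The same 4 omissions left TRAF3 at adjusted p values of 0.15, 0.163, 0.0929 and 0.105, and TNIP1 at 0.13, 0.124, 0.0932 and 0.119. TRAF3 had a log2 fold change of -0.79 with the length offset (adjusted p = 0.0928) and TNIP1 of -0.45 (0.205).

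Secreted inflammatory genes were mostly at low levels. Of 34 listed cytokine, chemokine and complement genes 21 were tested (median 0.139). Of these 2 rose (9.52%) and 4 fell (19%), against 9.37% and 9.3% of all tested genes. The rises became 1, 1, 1, 2, 3 and 1 and the falls 2, 2, 4, 5, 4 and 4 with NC replicates 1, 2 and 3 and TR11B_KO replicates 1, 2 and 3 left out in turn. CSF2, the granulocyte-macrophage colony-stimulating factor, was at 1.21, 1.01 and 1.44 CPM in NC and at 6.24, 5.86 and 4.69 CPM in TR11B_KO (log2 fold change 2.20 ± 0.27, adjusted p = 0.00208). The acute phase gene SAA1 was at 4.80, 5.94 and 6.62 CPM in NC and at 1.21, 1.21 and 1.47 CPM in TR11B_KO (-2.16 ± 0.27, adjusted p = 0.00208). CSF2 was thus higher and SAA1 lower in every TR11B_KO library than in any NC library. IL6, a cytokine whose gene is an NF-kB target, fell by 1.40 (adjusted p = 0.0124), but was not called without NC replicate 1 (0.0906) or NC replicate 2 (0.0622).

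Genes of mitosis were mainly lower in TR11B_KO. All 46 listed genes were tested, and 13 fell (28.3%) and 1 rose (2.17%), against 9.3% and 9.37% of all tested genes. The median log2 fold change was -0.59 against -0.0115 for all tested genes. The median of the list relative to the NC mean was -0.55, -0.78 and -0.74 in TR11B_KO replicates 1, 2 and 3 and lay between 0.00165 and 0.0324 in the NC libraries. BUB1, a kinase of the spindle checkpoint, was at 14, 12.8 and 15.2 CPM in NC and at 5.47, 2.35 and 4.00 CPM in TR11B_KO (-1.82 ± 0.31, adjusted p = 0.00603). CCNB1, the cyclin that drives entry into mitosis, was at 247, 275 and 215 CPM in NC and at 107, 36.2 and 82.7 CPM in TR11B_KO (-1.71 ± 0.34, adjusted p = 0.0094). ESPL1, the protease separase, was at 169, 162 and 135 CPM in NC and at 46.3, 59.4 and 80.0 CPM in TR11B_KO (-1.33 ± 0.23, adjusted p = 0.00642), and KIF23, a kinesin of cytokinesis, fell by 1.28 (adjusted p = 0.0104). None of these genes overlapped between groups, but only BUB1 was called whichever library was left out. CCNB1 and KIF23 were not called without NC replicate 1 (adjusted p = 0.0515 and 0.0721) or NC replicate 2 (0.0622 and 0.0591), nor ESPL1 without NC replicate 2 (0.0509). The number of the list's genes that fell was 14 with the length offset and 25 without TR11B_KO replicate 2. Leaving out TR11B_KO replicate 1 gave 17 and leaving out TR11B_KO replicate 3 gave 5, and with NC replicate 1, 2 or 3 left out it was 2, 1 and 8. In bulk RNA, fewer cells in mitosis and less RNA per cell cannot be told apart.

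Many mitotic genes share a short promoter element, the cell cycle genes homology region with the core TTTGAA, which reads TTCAAA on the reverse strand, and complexes of the MuvB family bind it. A box with the letters CCAAT often lies near. Both were searched for on both strands in the 300 bases of RefSeq GRCh38.p14 from 250 before to 50 after each start. TTTGAA occurred in 28 of the 39 mitosis promoters with an entry (71.8%), in 863 of 9716 promoters of tested genes (8.88%) and in 4212 of 27305 promoters in all (15.4%). CCAAT occurred in 30 of the 39 (76.9%) and in 35.7% of all promoters, and both together in 24 of the 39 (61.5%) and 6.08% of all. Of the 10 mitosis genes that fell and had a promoter entry, 6 held TTTGAA (60.0%). The promoters of the 3 of them with the smallest adjusted p are shown because they let the element be seen at its place, with the letters of both elements, on either strand, in capitals. All lie on the plus strand, at chr12:53268049-53268348 for ESPL1, chr15:69414099-69414398 for KIF23 and chr7:36389612-36389911 for ANLN.
ESPL1: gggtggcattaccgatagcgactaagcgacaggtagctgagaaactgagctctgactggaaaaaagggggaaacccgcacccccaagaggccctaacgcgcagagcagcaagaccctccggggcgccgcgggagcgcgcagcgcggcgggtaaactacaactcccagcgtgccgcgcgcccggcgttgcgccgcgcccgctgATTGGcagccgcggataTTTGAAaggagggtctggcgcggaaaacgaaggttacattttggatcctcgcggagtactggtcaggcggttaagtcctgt
KIF23: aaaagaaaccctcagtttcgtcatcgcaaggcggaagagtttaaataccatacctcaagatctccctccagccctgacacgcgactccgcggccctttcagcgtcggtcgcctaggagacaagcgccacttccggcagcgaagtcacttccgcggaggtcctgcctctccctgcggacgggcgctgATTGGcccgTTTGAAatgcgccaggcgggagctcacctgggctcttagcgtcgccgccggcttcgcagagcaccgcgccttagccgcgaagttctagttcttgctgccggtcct
ANLN: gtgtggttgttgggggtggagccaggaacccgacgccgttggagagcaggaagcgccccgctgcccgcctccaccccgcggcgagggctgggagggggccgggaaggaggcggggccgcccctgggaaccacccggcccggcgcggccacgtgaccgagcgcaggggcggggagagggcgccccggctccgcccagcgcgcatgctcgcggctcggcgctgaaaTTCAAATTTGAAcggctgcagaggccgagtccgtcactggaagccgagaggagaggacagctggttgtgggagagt
TTTGAA begins at -31 from the start in ESPL1, at -55 in KIF23 and at -20 in ANLN, and in ANLN its reverse complement directly precedes it. ANLN, the actin-binding anillin of the cleavage furrow, had a log2 fold change of -1.12 (adjusted p = 0.0111). These matches describe letters only, and no binding was measured.

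DNA replication genes were mainly lower too, with calls that rested on single libraries. Of 47 genes 8 fell (17%) and, by edgeR, 0 rose, against 9.3% and 9.37% of all tested genes. At an unadjusted p under 0.05 there were 0 higher and 18 lower, and DESeq2 called 0 higher and 13 lower. The median was -0.425, and -0.3 without TR11B_KO replicate 2, in which the list was lowest (-0.676 against -0.225 and -0.397 in replicates 1 and 3). The helicase subunit MCM4 was at 85.8, 83.0 and 72.0 CPM in NC and at 49.5, 27.7 and 36.7 CPM in TR11B_KO (-1.08 ± 0.24, adjusted p = 0.0137). It was lowest in TR11B_KO replicate 2, and was not called without NC replicate 1 (0.0924), NC replicate 2 (0.0904) or TR11B_KO replicate 3 (0.0607). The number that fell was 14 without TR11B_KO replicate 1 and also 14 without TR11B_KO replicate 2, and 1 without NC replicate 3. With NC replicate 1, NC replicate 2 or TR11B_KO replicate 3 left out, edgeR called 0 lower, and 9, 8 and 13 were lower at an unadjusted p under 0.05.

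MYC, a transcription factor of growth and ribosome synthesis, was at 100, 97 and 77.5 CPM in NC and at 39.4, 12.4 and 31.0 CPM in TR11B_KO. It fell by 1.73 on the log2 scale (SE 0.36, adjusted p = 0.0106) with no overlap between groups, but was not called without NC replicate 1 (0.0633) or NC replicate 2 (0.0662). Of 38 tested genes of MYC and ribosome biogenesis (median -0.141), 8 fell (21.1%) and 1 rose (2.63%), against 9.3% and 9.37% of all tested genes. ODC1, the first enzyme of polyamine synthesis and a known MYC target, was at 368, 394 and 412 CPM in NC and at 188, 107 and 133 CPM in TR11B_KO (-1.45 ± 0.23, adjusted p = 0.00482), and passed whichever library was left out. The nucleolar methyltransferase NOP2 fell by 1.04 (adjusted p = 0.00611, but 0.0515 with NC replicate 1 left out and 0.0535 with NC replicate 2 left out). The list's falls numbered 11 without TR11B_KO replicate 2 and 13 without replicate 1, 4 without NC replicate 3 or TR11B_KO replicate 3, and 1 without NC replicate 1 or NC replicate 2.

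Cytosolic ribosomal protein genes were mainly higher in TR11B_KO. Of 78 tested, 34 rose (43.6%) and 1 fell (1.28%), against 9.37% and 9.3% of all tested genes. The list's median log2 fold change was 0.64. Its genes took 16.4%, 13.5% and 15% of all counts in TR11B_KO against 10.1%, 10.3% and 10.9% in NC. RPL7, a large subunit protein, was at 106, 121 and 146 CPM in NC and at 776, 344 and 499 CPM in TR11B_KO (2.11 ± 0.29, adjusted p = 0.00289). RPS3, a small subunit protein, was at 3904, 3895 and 4541 CPM in NC and at 8013, 10506 and 8618 CPM in TR11B_KO (1.14 ± 0.19, adjusted p = 0.00568). RPL7 was least raised in replicate 2 and RPS3 most, so the members did not share an order among the TR11B_KO libraries. Processed copies of these genes are common in the genome and the treatment of reads that match several places was not given, so single members are uncertain. Without TR11B_KO replicate 2, 69 rose (median 0.735). The number was 39 without TR11B_KO replicate 1 and 19 without TR11B_KO replicate 3, and with NC replicate 1, 2 or 3 left out it was 7, 5 and 17.

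Nuclear genes of the respiratory chain were mainly higher as well. Of 72 tested, 26 rose (36.1%) and 2 fell (2.78%), against 9.37% and 9.3% of all tested genes. The list's median was 0.596. COX7A2, a subunit of cytochrome c oxidase, was at 106, 109 and 121 CPM in NC and at 288, 352 and 301 CPM in TR11B_KO (1.48 ± 0.19, adjusted p = 0.00208). ATP5MG, a subunit of ATP synthase, was at 191, 213 and 229 CPM in NC and at 596, 548.7 and 539 CPM in TR11B_KO (1.41 ± 0.19, adjusted p = 0.00223). Both were higher in every TR11B_KO library and passed whichever library was left out. Without TR11B_KO replicate 2, 48 of the list rose, and the number was 32 without TR11B_KO replicate 1, 14 without TR11B_KO replicate 3, 10 without NC replicate 3 and 3 without NC replicate 1 or NC replicate 2. Of the 13 mitochondrially encoded genes tested, edgeR called 0 in either direction, with 1 higher and 0 lower at an unadjusted p under 0.05, and DESeq2 called 1 higher. Without TR11B_KO replicate 2, 1 rose and 3 fell. The length offset gave 3 falls, ND4L among them (-1.29, adjusted p = 0.00708), and with the offset and without that library 12 fell. Without the offset ND4L, of 297 bases, had a log2 fold change of -0.40 on all 6 libraries (adjusted p = 0.186). The list's median length is 784 bases, against 3980 for all tested genes, and the offset lowers the values of short genes. Whether these falls reflect RNA levels or the offset was not tested.

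The ribosomal protein and respiratory chain lists also consist of short genes, with median lengths of 1123 and 1269.5 bases against 3980 for all tested genes. Length moved with the comparison as a whole. Across the 12055 genes, Spearman's rho between the log2 fold change and gene length was -0.32, with or without TR11B_KO replicate 2, a value over genes that share libraries and are not independent. In the shortest of 5 equal groups of 2411 genes (111 to 2075 bases) the median log2 fold change was 0.431, with 534 genes higher and 61 lower. In the longest (7177 to 47609 bases) it was -0.311, with 78 higher and 292 lower. All 3 TR11B_KO libraries had the trend, with medians of 0.261 to 0.339 in the shortest group and -0.291 to -0.206 in the longest, and NC replicate 3 showed a slighter one (0.043 and -0.0728). With the length offset, 16 of 78 ribosomal protein genes rose and 2 fell (median 0.217). Of 72 respiratory chain genes 5 rose and 4 fell (median 0.266). In that fit 7.15% of all tested genes rose and 6.54% fell, with a median of 0.0353. The respiratory chain calls were thus near the share of all genes in that fit. With the offset and without TR11B_KO replicate 2 they were not. There 24 of the 72 rose and 9 fell, and 34 of 78 ribosomal protein genes rose and 5 fell. Of all tested genes 13.3% rose and 13.5% fell in that setting. With the offset on all 6 libraries RPL7 (1.90, adjusted p = 0.0042), RPS3 (1.11, 0.0088), COX7A2 (1.16, 0.0069) and ATP5MG (0.96, 0.011) still rose. The offset also removes any true change that follows length. Whether length itself, RNA quality or library preparation moved these lists was not tested.

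**Figure D2:**
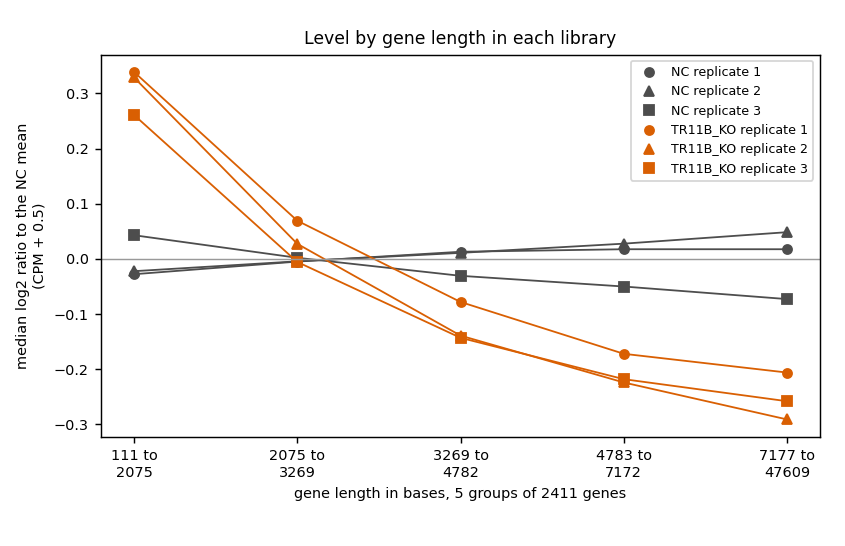
Median log2 ratio of each library to the NC mean (CPM + 0.5) in 5 groups of 2411 genes ordered by gene length in bases. The 3 TR11B_KO lines descend from 0.261 to 0.339 in the shortest group to between -0.291 and -0.206 in the longest, while the NC lines stay between -0.0728 and 0.0485.

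**Figure D3:**
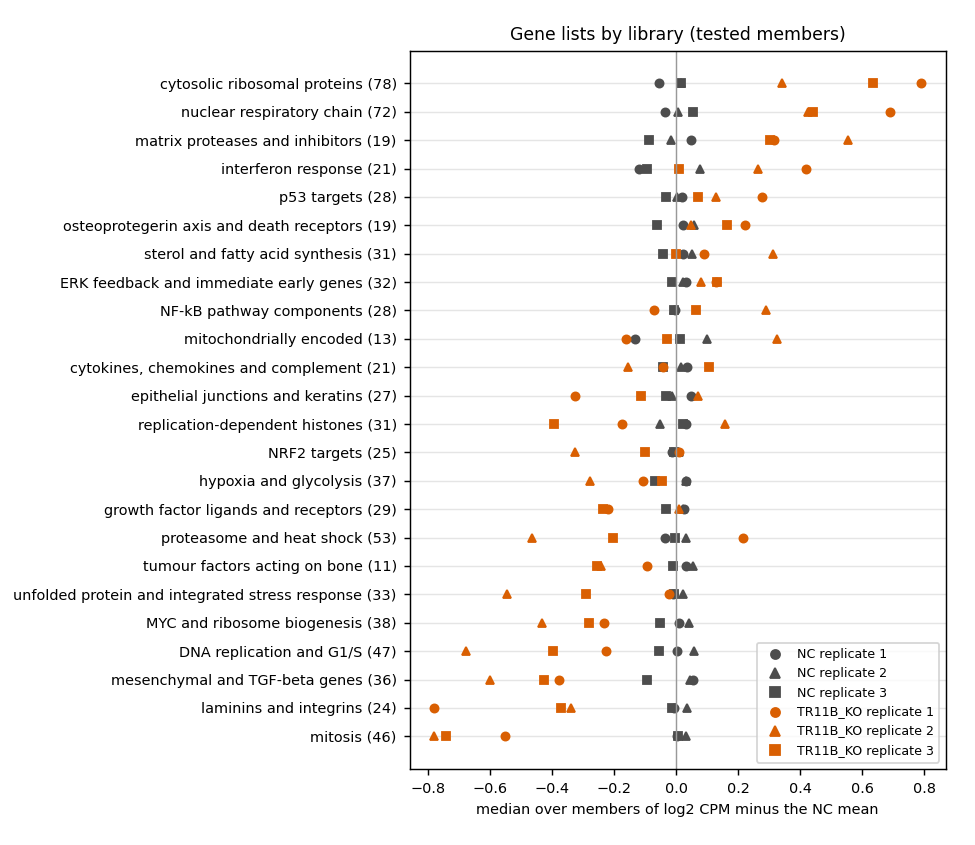
Median over the tested members (number in brackets) of log2 CPM minus the NC mean, for each gene list with at least 11 tested members and each library. For mitosis the 3 TR11B_KO points lie at -0.78 to -0.55 and for ribosomal proteins at 0.34 to 0.79, apart from the NC points near 0.

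Targets of p53 changed in both directions. Of 28 tested genes (median 0.223) 6 rose (21.4%) and 3 fell (10.7%), against 9.37% and 9.3% of all tested genes. Beside PHLDA3, MDM2, the ubiquitin ligase that degrades p53, was at 3.96, 5.02 and 5.23 CPM in NC and at 10.3, 18.3 and 11.7 CPM in TR11B_KO (1.5 ± 0.29, adjusted p = 0.00846). BBC3, the pro-apoptotic PUMA, was at 11.9, 11.5 and 11 CPM in NC and at 20.5, 26.5 and 24.8 CPM in TR11B_KO (1.07, adjusted p = 0.0111). Neither overlapped between groups, yet each lost its call when certain libraries were left out. MDM2 was not called without NC replicate 1 (0.0634) or NC replicate 2 (0.0576), and BBC3 without NC replicate 1 (0.0711), NC replicate 2 (0.0782) or NC replicate 3 (0.0551). The list's rises numbered 8 without TR11B_KO replicate 1 or TR11B_KO replicate 2, 3 without NC replicate 3 or TR11B_KO replicate 3, and 1 without NC replicate 1 or NC replicate 2, and 7 with the length offset.

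In the list of mesenchymal and TGF-beta genes falls outnumbered rises. Of 36 tested genes of the mesenchymal and TGF-beta list 9 fell (25%) and 2 rose (5.56%), against 9.3% and 9.37% of all tested genes. The list's median was -0.492 (-0.326 with the length offset). The actin-binding TAGLN was at 54.8, 61.9 and 59.4 CPM in NC and at 17.6, 14.7 and 15.3 CPM in TR11B_KO (-1.89 ± 0.20, adjusted p = 0.00114). Thrombospondin THBS1 was at 56.1, 58.0 and 56.8 CPM in NC and at 16.4, 14.3 and 17.4 CPM in TR11B_KO (-1.83 ± 0.20, adjusted p = 0.00124). In these genes both groups were tight and separate, and each passed whichever library was left out. Tenascin TNC (-2.43, adjusted p = 0.003) and versican VCAN (27.0, 28.1 and 19.8 CPM in NC, 1.96, 7.40 and 5.18 CPM in TR11B_KO, -2.37 ± 0.41, adjusted p = 0.00632) fell as well. The falls numbered 10 with the length offset, 14 without TR11B_KO replicate 2, and 6 to 12 with any other library left out, the 6 without NC replicate 1 or NC replicate 2.

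Of 24 tested laminin and integrin genes, TGM2 included as an integrin partner, 6 fell (25%) with a median of -0.604. Of all tested genes 9.3% fell and 9.37% rose. By edgeR 0 of the list rose, with 2 higher and 12 lower at an unadjusted p under 0.05, and DESeq2 called 1 higher and 7 lower. The laminin chain LAMA5 was at 208, 214 and 209 CPM in NC and at 53, 90.2 and 99.1 CPM in TR11B_KO (-1.38 ± 0.24, adjusted p = 0.00653), and passed in every fit that left out a library. Such genes are long, with a median length of 6004.5 bases, and with the length offset 2 fell and 1 rose (median -0.382). LAMA5 still fell with the offset (-1.07, adjusted p = 0.022). The falls numbered 12 without TR11B_KO replicate 2, 4 without TR11B_KO replicate 1 or 3, and 2 without any single NC library. Among proteases and their inhibitors, 4 of 19 rose (21.1%) and 3 fell (15.8%), against 9.37% and 9.3% of all tested genes. With NC replicates 1 to 3 and then TR11B_KO replicates 1 to 3 omitted in turn, the rises became 1, 1, 1, 6, 7 and 1 and the falls 1, 1, 1, 3, 5 and 2. TIMP2, an inhibitor of metalloproteinases, was at 3.92, 3.24 and 2.34 CPM in NC and at 12.2, 17.2 and 12.9 CPM in TR11B_KO, all above NC (2.15 ± 0.28, adjusted p = 0.00224).

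Epithelial genes changed in both directions. Of 27 tested junction and keratin genes (median -0.202) 2 rose (7.41%) and 5 fell (18.5%), against 9.37% and 9.3% of all tested genes. KRT80, a keratin of epithelial barriers, was at 282, 263 and 270 CPM in NC and at 79.2, 114 and 88.0 CPM in TR11B_KO (-1.53 ± 0.20, adjusted p = 0.00228). KRT16 lay on the opposite side, as given above. The simple keratin KRT8 had a log2 fold change of -0.20 (adjusted p = 0.492), and -0.34 without TR11B_KO replicate 2 (0.029). Of the 29 tested growth factor ligands, binding proteins and receptors, 6 rose (20.7%) and 6 fell (20.7%). Leaving out NC replicates 1, 2 and 3 and TR11B_KO replicates 1, 2 and 3 in turn took the epithelial rises to 1, 1, 2, 5, 3 and 2 and the falls to 1, 1, 3, 4, 7 and 3. The growth factor rises became 2, 2, 3, 6, 7 and 4 and the falls 1, 1, 4, 7, 8 and 6. IGFBP3, the main carrier of insulin-like growth factors in serum, was read 22, 21 and 13 times in NC and 0 times in all 3 TR11B_KO libraries, a low level at which no fold is given. It was not called without NC replicate 1 (adjusted p = 0.0506) or NC replicate 2 (0.0535).

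Some metabolic genes changed strongly within lists that went both ways. PHGDH, the first enzyme of serine synthesis, was at 60.7, 57.5 and 68.4 CPM in NC and at 220, 368 and 248 CPM in TR11B_KO (2.16 ± 0.24, adjusted p = 0.00124). AKR1B1, which reduces glucose to sorbitol, was at 1164, 1193 and 1252 CPM in NC and at 530, 566 and 578 CPM in TR11B_KO (-1.11 ± 0.18, adjusted p = 0.00473). Both were separate between groups and passed whichever library was left out. The lists of this kind were mixed. Of 31 sterol and fatty acid genes 6 rose (19.4%) and 3 fell (9.68%), with a median of -0.0637. Of 33 stress response genes 4 rose (12.1%) and 4 fell (12.1%), with a median of -0.215. Of 25 NRF2 targets 1 rose (4%) and 3 fell (12%), with a median of -0.0444. The shares of all tested genes were 9.37% and 9.3%, so the stress response calls were near them. With NC replicates 1 to 3 and then TR11B_KO replicates 1 to 3 left out in turn, the sterol rises became 0, 0, 1, 8, 9 and 3 and the falls 1, 1, 1, 4, 6 and 1. In that order the stress response rises became 1, 1, 3, 4, 7 and 3 and the falls 0, 0, 1, 8, 6 and 2, and the NRF2 rises 0, 0, 0, 4, 5 and 0 and the falls 2, 1, 3, 5, 6 and 3. Where edgeR called 0 in these fits, an unadjusted p under 0.05 was reached by 6 sterol genes upwards in each fit, by 6 and 5 stress response genes downwards and by 2 NRF2 targets upwards in each.

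Of 37 tested genes of hypoxia and glycolysis 5 rose (13.5%) and 7 fell (18.9%), against 9.37% and 9.3% of all tested genes. With NC replicates 1 to 3 and then TR11B_KO replicates 1 to 3 left out in turn, the rises became 2, 2, 2, 7, 8 and 2 and the falls 2, 2, 4, 7, 8 and 4. EPAS1, the hypoxia-inducible factor HIF-2 alpha, was at 4.39, 4.30 and 3.42 CPM in NC and at 0.159, 0.589 and 0.859 CPM in TR11B_KO (-2.92 ± 0.47, adjusted p = 0.00475). DDIT4, an inhibitor of mTORC1, was at 43.8, 45.6 and 45.5 CPM in NC and at 100, 120 and 101 CPM in TR11B_KO (1.25 ± 0.19, adjusted p = 0.00373). The neuronal enolase ENO2 rose by 1.85 on the log2 scale (adjusted p = 0.00559). Of 21 interferon response genes 4 rose (19%) and 4 fell (19%). In that order of omissions the rises became 3, 3, 3, 5, 6 and 4 and the falls 0, 0, 1, 4, 5 and 1. Where edgeR called 0 falls, 5 genes were lower at an unadjusted p under 0.05 in each fit. IFI6 was at 5.08, 5.43 and 6.11 CPM in NC and at 18, 14.3 and 16.5 CPM in TR11B_KO (1.55 ± 0.24, adjusted p = 0.00393), and IRF7, a transcription factor of the interferon system, rose by 1.64 (adjusted p = 0.00599). Of 53 proteasome and heat shock genes 5 rose (9.43%) and 3 fell (5.66%), against 9.37% and 9.3% of all tested genes, and with the omissions in that order the rises became 1, 1, 2, 5, 11 and 3 and the falls 1, 1, 2, 12, 10 and 1. The co-chaperone DNAJB1 was at 172, 219 and 201 CPM in NC and at 74.8, 53.8 and 63.3 CPM in TR11B_KO (-1.63 ± 0.21, adjusted p = 0.00208), and the mitochondrial chaperonin HSPE1 was higher by 1.95 (adjusted p = 0.00219).

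By chromosome, chromosome 13 stood lowest. Its 187 tested genes had a median log2 fold change of -0.615. Of them 45 were lower (24.1%) and 2 higher (1.07%), against 9.3% and 9.37% of all tested genes. The chromosome's median was -0.545 without TR11B_KO replicate 2 and -0.497 with the length offset. MIPEP lies on this chromosome (from 23730189) and was at 16.5, 14.4 and 9.40 CPM in NC and at 4.74, 0.991 and 2.11 CPM in TR11B_KO. SLC7A1, a cationic amino acid transporter (from 29509414), had a log2 fold change of -1.94 (adjusted p = 0.00536), and B3GLCT, a glucosyltransferase (from 31199975), of -2.66 (adjusted p = 0.00874). Both were picked after their values were seen, and their values in the other settings are not given here. On all 6 libraries chromosome 19 had the highest median, 0.276, with 15.9% of 952 genes higher. Without TR11B_KO replicate 2 its median was 0.139, and that of chromosome 21 was 0.141. On all 6 libraries chromosome 8, which carries TNFRSF11B, came next with 0.163, and the others lay between -0.148 and 0.0793. DNA copy number was not measured.

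**Figure D4:**
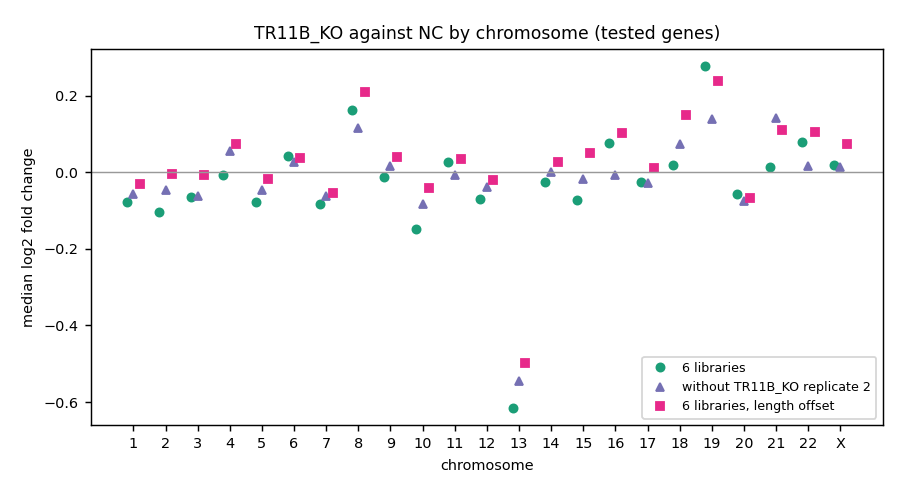
Median log2 fold change of the tested genes of each chromosome in the fit of 6 libraries, in the fit without TR11B_KO replicate 2 and with the length offset. Chromosome 13 lies at -0.615, -0.545 and -0.497 in these fits, below all others.

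TR11B_KO replicate 2 departed from its group in definite genes. Among 3816 well-expressed genes (mean log2 CPM of 4 or more) whose replicates 1 and 3 lay within 0.5 of each other on the log2 scale, replicate 2 was at least 2-fold above their mean in 145 and at least 2-fold below in 251. The nucleoside transporter SLC29A2 was at 37.2, 117 and 49.5 CPM in TR11B_KO replicates 1, 2 and 3, and at 33.5 to 34.6 CPM in NC. MCOLN1, a lysosomal calcium channel, was at 79.0, 78.6 and 82.1 CPM in NC and at 44.2, 125 and 55.6 CPM in TR11B_KO, so replicates 1 and 3 lay below and replicate 2 above all NC libraries. Its log2 fold change was -0.09 (adjusted p = 0.865), and -0.65 without replicate 2 (0.00486). CKS2, a cofactor of cyclin-dependent kinases, went the opposite way, with 24.3, 27.6 and 22.5 CPM in NC and 51.3, 13 and 40.5 CPM in TR11B_KO (0.49, adjusted p = 0.406, and 0.91 without replicate 2, 0.000666). The splicing genes TRA2B (58.2, 12.6 and 44.6 CPM in TR11B_KO) and SNRPG (77.5, 18.2 and 58.5 CPM) were likewise low in replicate 2 alone. These genes were chosen for this departure, so it is a description. The counts of 145 and 251 come from genes in which replicates 1 and 3 were required to be close, so only replicate 2 could depart. No such count was made for replicate 1 or replicate 3.

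TR11B_KO was also set against OGT_KO, cells given the same plasmid for another target, in a fit of all 9 libraries, where 4174 of 12574 genes differed (33.2%). This comparison and that with NC share the 3 TR11B_KO libraries, so values are given side by side with no count of agreement. LTB had a log2 fold change of 3.78 against NC and of 4.76 against OGT_KO (adjusted p = 8.77e-08). For TGM2 the values were -2.62 and -2.39 (1.19e-06), and for MAP3K14 -2.45 and -1.31 (6.17e-05). PINX1 was lower than in NC by 2.31 on the log2 scale, and had a value of 0.11 against OGT_KO (0.812). NNMT, which fell against NC, was higher in TR11B_KO than in OGT_KO, by 1.79 on the log2 scale (adjusted p = 4.33e-05, edgeR). DYSF, which also fell against NC, was higher than in OGT_KO as well (8.1e-05). Its counts in TR11B_KO replicates 1, 2 and 3 were only 21, 14 and 36, so no fold against OGT_KO is given. OGT, the enzyme that adds N-acetylglucosamine to nuclear and cytosolic proteins, was at 28.2, 25.7 and 23.6 CPM in NC and at 16.3, 11 and 11.9 CPM in TR11B_KO. It fell by 0.98 (SE 0.24, adjusted p = 0.0191), with no overlap. Against the OGT_KO libraries, whose plasmid was directed at this gene, its log2 fold change was -0.82 (adjusted p = 0.00882), so the OGT transcript was lower in TR11B_KO than in the libraries labelled OGT_KO. Against NC, the log2 fold change of OGT with the length offset was -0.70 (adjusted p = 0.0589). Also against NC, without the offset, the gene was not called when NC replicate 1 (0.13), NC replicate 2 (0.112), NC replicate 3 (0.0564) or TR11B_KO replicate 3 (0.0796) was left out. The comparison with OGT_KO was not run with the length offset or with a library left out.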

How the data were processed

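RNA-seq libraries of 3 NC and 3 TR11B_KO samples were analysed. The deposited count table holds whole-number read counts per gene for 19257 genes, not normalized by the authors, and a deposited FPKM table holds the authors' values scaled to gene length and depth. The submitters' processing notes name GRCh38 and the tools DESeq2, fastp, HISAT, HTSeq and R 3.2.0, without a role or setting for any. Whether strand was kept, and how reads shared by close copies or overlapping genes were counted, is not given in the sources used here, so such genes are uncertain. Gene length was the ratio of count to FPKM, whole within 0.01 base for 17919 of 17923 genes with a count. Positions came from RefSeq GRCh38.p14, matched for 18561 genes.

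Counts were fitted for the 6 libraries with edgeR 4.0.16 in R 4.3.3: filterByExpr (12055 genes kept), TMM, robust quasi-likelihood F test, Benjamini-Hochberg adjustment over all tested genes, and a call at an adjusted p under 0.05. The biological coefficient of variation was 0.269 and the median of the prior degrees of freedom 6.822. Errors (SE) were derived as the size of the log2 fold change over the root of F. CPM are per 1e+06 counts of the TMM-scaled total. The length offset subtracts, per library, a lowess trend (span 0.3) on log2 gene length of each gene's log2 CPM (prior count 2) minus its mean over the fitted libraries. The script was tested on simulated data. Intervals cover counting error only.

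Named genes were TNFRSF11B, its ligands and related receptors, and OGT. To these were added the 14 largest rises and falls under the criteria given above, up to 4 called members per list by adjusted p, and the 6 genes per direction in which TR11B_KO replicate 2 departed most. Some items are not reported here. Members, lists and alternatives were chosen with earlier results of these data known. Alternatives were DESeq2 1.42.0, RLE factors, library totals, no filter, a stricter filter (1 CPM or more in 3 libraries), all 9 libraries, the replicate number as a block, the length offset, and leaving out each library. Replicate pairs differed by more than sampling noise (chi-square per degree of freedom 9.887 to 331.8), so all were kept as separate samples.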

Additional observations from a re-analysis of the deposited data

How the results depend on the processing

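Counts of calls moved most when a library was left out: from 245 to 3859 in all, from 126 to 1979 higher and from 119 to 1880 lower. Fits with fewer NC libraries gave fewer calls, and why they did so was not tested. With library totals in place of TMM, 752 genes rose, 37.9% of 1985 calls against 50.2% of the calls with TMM, and the median log2 fold change of all genes was -0.158. With genes kept at 1 CPM or more in 3 libraries, 57.5% of 2181 calls were higher. With all 9 libraries in the fit 3469 genes passed, 1803 of them lower. With the length offset and without TR11B_KO replicate 2, 3305 genes passed, 1638 higher and 1667 lower. Under that setting TNFRSF12A changed sign to -0.00152 (adjusted p = 0.996) and ZNF524 to -0.598 (0.0189), and so did 4 named genes called neither there nor on all 6 libraries: ND6 (-0.218), NCKAP5L (-0.00533), TECR (-0.23) and TRA2B (0.327). DESeq2 called 3000 genes, RLE factors gave 2240 and no filter 2464. Replicate numbers did not pair the samples, since the deviations of same-numbered libraries correlated at 0.0199, -0.134 and -0.193, and with the replicate number as a block 2272 genes passed, 46% of them higher, and 1664 with the block and the length offset. The TNFRSF11B ratio ranged from 0.0571 to 0.219 with a library left out and was 0.129 on raw counts. Of 108 named genes that passed, 55 did so whichever library was left out. The low counts of TNFRSF11B and of its ligand TNFSF10 limit what can be said of them.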
